A study of Mus musculus with 2 samples.

Results

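The genes Scx, Mkx, Six2, Sox9, Runx1, Runx2 and Tcf7l2 encode transcription factors of tendon, cartilage, bone and limb connective tissue. They were taken by name, and all 7 were found among the 27998 genes of the count table. Their transcripts were counted in cells released from the limb tendons of mouse pups at postnatal day 7 (P7), with 1 library labelled wild-type (WT) and 1 labelled mutant, each a pool of fore- and hindlimb tendons from 2 pups. The question was how the level of each regulator, and the cells in which it was seen, differed between these 2 libraries.

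The mutant pups were Tgfbr2;ScxCre mutants, in which a floxed TGFβ type II receptor gene is deleted by Cre from Scx regulatory sequences (Tgfbr2 f/-;ScxCre in the study's text). The title and genotype of the control library say wild type, whereas its description says Het, and it is called WT here. Mice of both groups also carried the tendon reporter ScxGFP and the Cre reporter Ai14 Rosa26-tdTomato (RosaT). The study describes ScxCre as not uniform in tenocytes of embryos, so deletion was not simultaneous in all cells. It states that targeting was complete only in early postnatal stages, and that staining of the receptor was almost gone from mutant tendons by birth. It also reports that most cells of P7 mutant tendons had lost ScxGFP. The study proposes that the cells with ScxGFP there were newly recruited, some of them with weak or no RosaT. Mutant and WT cells with high Scx may therefore differ in origin as well as in the receptor, which cannot be told apart here. The study traced the ScxGFP-negative cells of mutant tendons to tenocytes by RosaT. For sequencing it left out the scraping that removes cells of the tendon surface. Mutant and WT cells with low Scx may therefore differ in origin too, and ratios between them may compare unlike cells. This cannot be told apart here either. Transcripts of ScxGFP count under Scx and could not be separated from those of the endogenous gene.

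Scleraxis (Scx) is a basic helix-loop-helix factor that marks tendon progenitors and tenocytes and pairs with E proteins on DNA. Mohawk (Mkx) is a homeobox factor required for normal tendon collagen. Six2 is a homeobox factor expressed in limb tendons and connective tissue. Sox9 directs cartilage formation and, together with Scx, marks progenitors at the junction of tendon and bone. Runx2 directs bone formation, and its relative Runx1 acts in blood stem cells and in early skeletal mesenchyme. Both need the partner Cbfb to bind DNA well. Tcf7l2 carries the Wnt signal to DNA together with beta-catenin and marks the connective tissue fibroblasts around muscle.

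The Runx1 and Runx2 promoter windows are shown because Runx1 differed most between the libraries and because RUNX proteins bind a short DNA word that can be looked for in the genes that encode them. The windows are from RefSeq on GRCm38.p6 (the build mm10 used by the authors), run from 250 bases before to 50 bases after a gene start, and are written 5′ to 3′ on the gene's strand. The capitals mark the RUNX word ACCACA; it was searched on both strands (reverse complement TGTGGT). The Runx1 windows lie on the minus strand at chr16:92826025-92826324 (distal start) and chr16:92697280-92697579 (proximal start), and the Runx2 window lies on the minus strand at chr17:44814578-44814877.
Runx1 distal: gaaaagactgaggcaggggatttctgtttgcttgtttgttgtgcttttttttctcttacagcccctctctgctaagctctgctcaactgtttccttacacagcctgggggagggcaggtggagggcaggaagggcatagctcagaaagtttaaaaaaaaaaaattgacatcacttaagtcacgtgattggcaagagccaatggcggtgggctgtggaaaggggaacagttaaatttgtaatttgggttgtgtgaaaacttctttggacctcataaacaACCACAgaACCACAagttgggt
Runx1 proximal: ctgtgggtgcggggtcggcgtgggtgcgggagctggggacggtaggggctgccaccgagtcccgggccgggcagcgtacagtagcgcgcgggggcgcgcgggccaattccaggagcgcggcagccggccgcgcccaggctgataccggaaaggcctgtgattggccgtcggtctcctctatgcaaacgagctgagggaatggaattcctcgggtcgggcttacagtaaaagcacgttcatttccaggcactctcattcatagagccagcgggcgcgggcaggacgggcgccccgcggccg
Runx2: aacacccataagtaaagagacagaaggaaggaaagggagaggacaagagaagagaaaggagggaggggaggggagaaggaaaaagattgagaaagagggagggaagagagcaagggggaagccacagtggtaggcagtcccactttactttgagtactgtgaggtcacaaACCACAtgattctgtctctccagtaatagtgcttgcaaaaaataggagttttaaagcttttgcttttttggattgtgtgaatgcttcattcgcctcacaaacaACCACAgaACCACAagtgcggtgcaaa

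The word occurred 2 times in the distal Runx1 window, 3 times in the Runx2 window and 0 times in the proximal Runx1 window. Windows on chromosome 18, where Mkx lies, were left out of the search and of the counts over all windows. Of 32851 such windows on the other chromosomes in the RefSeq table, 16.8% held at least 1 copy, 1.81% at least 2 and 0.183% at least 3. With chromosome 18 left out, windows were found for 4 of the 7 genes, 6 windows in all. In the remaining windows, of Six2 and Tcf7l2, the word did not occur. The Smad word CAGAC (reverse complement GTCTG) occurred 1 time in the Six2 window and 1 time in the first Tcf7l2 window, and 49.6% of all windows held it. A match describes these letters only.

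The WT library held 2364 cells and 9451606 unique molecular identifiers (UMIs, each a counted mRNA molecule), and the mutant library 2592 cells and 8250248 UMIs. The median cell had 3866.5 UMIs in the WT and 2828 in the mutant, and 2 cell barcodes were shared. With 1 library per group there was no spread between replicates and no test, and the intervals below are exact 95% intervals of counting error. Batch and condition cannot be told apart. Levels are UMIs per 1000000 UMIs of the cells summed (CPM). They are compared within a gene, because counts at the 3′ end do not give levels between genes. Tgfbr2 itself was at 45 CPM in the WT and 64.2 CPM in the mutant library, and 3′ counts do not show whether the floxed part of the gene was deleted.

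Cells were divided by a rule. Scx-high cells had 30 or more Scx UMIs per 10000 UMIs, Scx-low mesenchymal cells had less Scx and 5 or more UMIs over the collagen genes Col1a1 and Col3a1, and all remaining cells are called other. The WT library had 1178 Scx-high cells (49.8%, 47.8 to 51.9), 943 Scx-low mesenchymal cells (39.9%) and 243 other cells (10.3%). The mutant library had 235 Scx-high cells (9.07%, 7.99 to 10.2), 1946 Scx-low mesenchymal cells (75.1%) and 411 other cells (15.9%). Between 20 and 45 Scx UMIs per 10000 lay 79 WT cells and 61 mutant cells. These were few beside each library, but the mutant number was not small beside its 235 Scx-high cells. From 30 to 100 Scx UMIs per 10000 lay 90 of the 235 mutant and 146 of the 1178 WT Scx-high cells.

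Tenocyte markers were most abundant in the Scx-high class of both libraries. Since Scx set the class it is left out here: the other 5 tenocyte markers had 15876 CPM in sum in WT and 10523 CPM in mutant Scx-high cells, against 1820 and 2634 CPM in the Scx-low mesenchymal cells. Apart from haemoglobin genes, markers of fibroblasts and the peritenon were the highest list in the Scx-low mesenchymal class, with 7749 CPM in the WT and 7501 CPM in the mutant. Haemoglobin genes were at 57182 CPM in this class of the WT, which held 29 haemoglobin-rich cells. In the mutant class they were at 2312 CPM, with 1 such cell. The mutant Scx-high cells had 2576 CPM of the fibroblast list against 345 CPM in WT Scx-high cells. Most of the 2576 CPM was Mfap5 (1531 CPM, against 57.6 in the WT) and Lum (655 against 94.6). Clec3b was the only gene of this list that was lower in the mutant (69.3 against 118 CPM). At least 3 UMIs of the fibroblast list were seen in 68.1% of mutant Scx-high cells. For the tenocyte list without Scx this share was 88.5%, so many cells had both. Whether the class was also a mixture of cell types was not tested. Of the 235 mutant Scx-high cells, 18 carried muscle and 5 Schwann markers, against 13 and 1 of 1178 WT Scx-high cells. Myod1, of the muscle list, had 80 UMIs in the mutant and 0 in the WT Scx-high cells, whereas Tnnt3 had 0 and 10. Chodl, of the same list, held 149 of the 174 muscle-list UMIs in WT Scx-high cells, and 42 of 141 in mutant ones. Its levels there were 30.3 and 38.8 CPM. Whether cells with muscle markers were muscle cells was not tested. The Scx-high rule asks for no collagen UMIs, so values over both mesenchymal classes include such cells. The other cells were mostly immune or haemoglobin-rich: by their markers, 143 of 243 in the WT and 179 of 411 in the mutant were immune.

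Scx set the classes, so its levels are a description. In Scx-high cells it was at 25435 CPM in the WT and 27937 CPM in the mutant. Its level in Scx-low mesenchymal cells was 406 CPM (386 to 427) in the WT and 162 CPM (152 to 172) in the mutant. Over the whole class the WT value was not separated from that of the WT other cells, 406 CPM (361 to 455). Scx was seen in 69.2% of Scx-low mesenchymal cells (median depth 3747 UMIs) and in 63.0% of other cells (median 2548). Haemoglobin-rich cells, which should lack Scx, had it in 62.5% of 88 WT cells and 13.9% of 79 mutant cells. Their WT level was 219 CPM (179 to 264), and that of WT other cells with immune markers 551 CPM (476 to 634). WT Scx-low mesenchymal cells with 5 or more UMIs of the tenocyte marker Tnmd had 1034 CPM of Scx (939 to 1135). Those with 0 had 312 CPM (288 to 338), in a split chosen after the values were seen. The part of background in the class was not tested. In the mutant, Scx was seen in 21.6% of Scx-low mesenchymal cells (median depth 2888) and in 14.6% of other cells (median 2056). Over both mesenchymal classes Scx was at 14499 CPM in the WT and 4334 CPM in the mutant. Scx lies at chr15:76457452-76459458 on the plus strand.

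**Figure D1:**
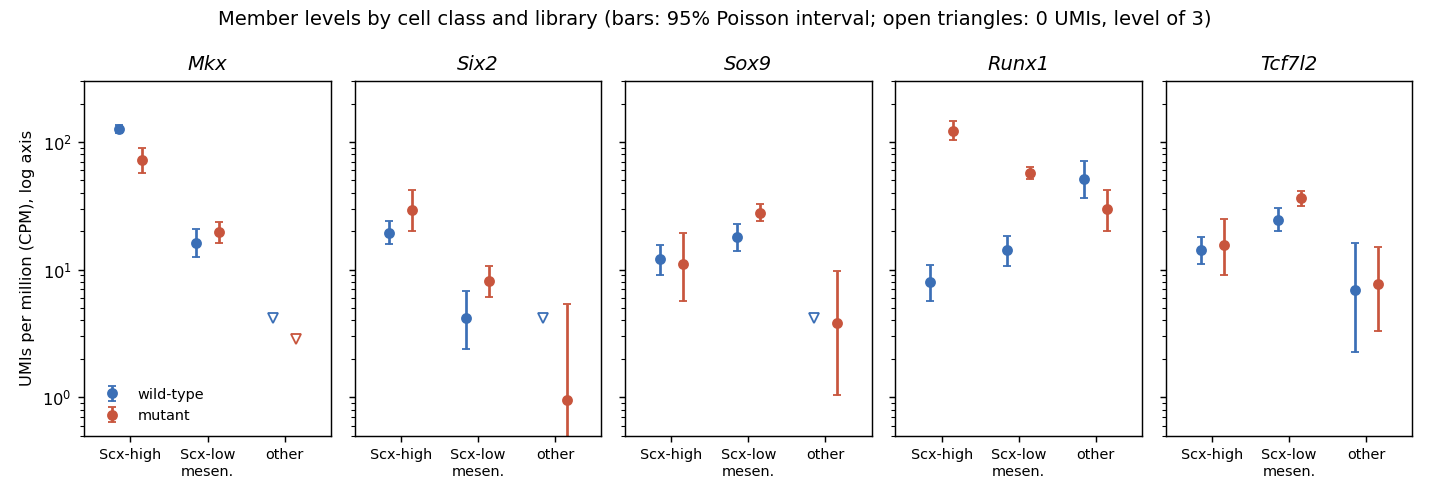
Level of Mkx, Six2, Sox9, Runx1 and Tcf7l2 (CPM, log axis) in the Scx-high, Scx-low mesenchymal and other cells of the WT (blue) and mutant (red) library, with 95% Poisson intervals. Open triangles mark groups with 0 UMIs, placed at the level of 3 UMIs. Scx and Runx2 are not drawn. Mkx is highest in WT Scx-high cells (126.5 CPM), whereas Runx1 is highest in mutant Scx-high cells (122.8 CPM) and lowest in WT Scx-high cells (7.93 CPM).

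Mkx was higher in Scx-high than in Scx-low mesenchymal cells of both libraries, and its level in Scx-high cells was lower in the mutant. It was at 126.5 CPM (116.8 to 136.9) in WT Scx-high cells, at 72.0 CPM (56.9 to 89.9) in mutant Scx-high cells, at 19.6 CPM (16.2 to 23.4) in mutant Scx-low mesenchymal cells and at 16.3 CPM (12.5 to 20.8) in WT Scx-low mesenchymal cells. The last 2 of these overlapped in their intervals, whereas the others stood apart. No Mkx UMI was found in 243 WT other cells or 411 mutant other cells, which allows shares of cells with a UMI of up to 1.23% and 0.730%. Here and below, what a count of 0 allows is 3 counts of the total, which limits cells with a UMI and not cells that express the gene. The mutant level in Scx-high cells was 1.76-fold lower (1.39 to 2.25), and 89.7% of the 9833 genes tested there had a higher ratio than Mkx. The ratio of mutant to WT in Scx-low mesenchymal cells was 1.21 (0.880 to 1.66).

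Over both mesenchymal classes together Mkx was 2.85-fold lower in the mutant (2.43 to 3.36), at 27.5 CPM against 78.4 CPM. Scx-high cells made up a smaller share of the mutant cells, and the difference within Scx-high cells was smaller than this. After each cell was thinned to 1500 UMIs, which evens out depth, Mkx was seen in 15.8% (13.7 to 18.1) of 1089 WT and 11.6% (7.63 to 16.6) of 216 mutant Scx-high cells, and these intervals overlap. Without thinning the shares were 38.0% and 23.0%. Thinning left out 89 WT and 19 mutant Scx-high cells that were shallower. Mkx lies at chr18:6934518-7004780 on the minus strand.

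Mkx also separated cells by tenomodulin (Tnmd), a membrane protein of mature tenocytes. In this split, which was chosen after the values were seen, WT Scx-low mesenchymal cells with 5 or more Tnmd UMIs had 86.9 CPM of Mkx (61.2 to 120, 126 cells), against 6.65 CPM in those with 0 (3.54 to 11.4, 499 cells). In mutant Scx-low mesenchymal cells the values were 47.5 CPM (35.8 to 61.8, 306 cells) and 6.78 CPM (4.19 to 10.4, 1028 cells). Of the 235 mutant Scx-high cells, 172 had 5 or more Tnmd UMIs and held all 78 Mkx UMIs of the class, at 92.1 CPM. The 37 cells with 0 and the 26 cells with 1 to 4 Tnmd UMIs held none, which allows up to 19.1 and 37.8 CPM (3 counts). The part of cells with muscle or Schwann markers in these bins was not tested. Against the 1140 WT Scx-high cells with 5 or more Tnmd UMIs, Mkx in the mutant was at a ratio of 0.725 (0.565 to 0.919).

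**Figure D2:**
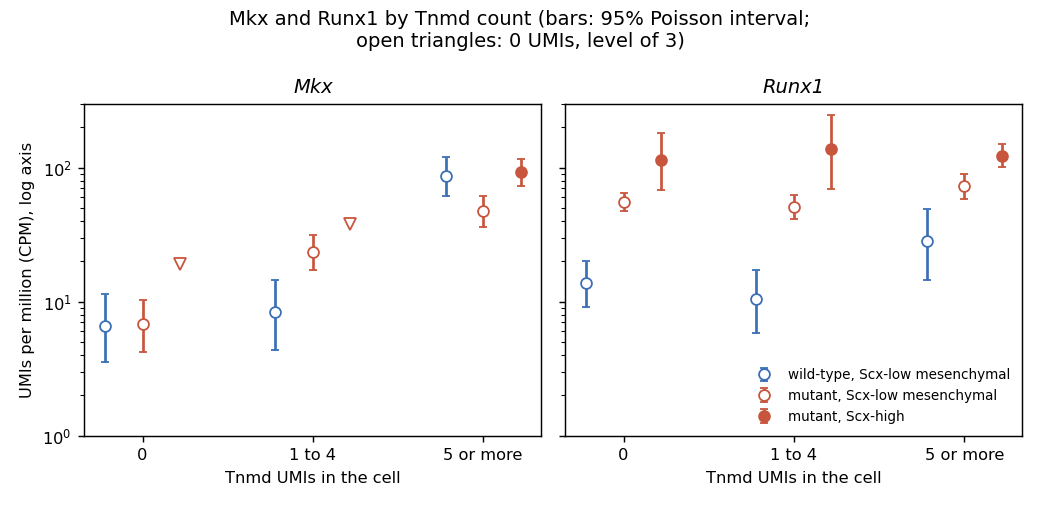
Level of Mkx and Runx1 (CPM, log axis) in cells with 0, 1 to 4 and 5 or more Tnmd UMIs, for the Scx-low mesenchymal cells of both libraries (open circles) and the mutant Scx-high cells (filled circles), with 95% Poisson intervals; open triangles mark 0 UMIs, placed at the level of 3. Mkx is 86.9 CPM in WT Scx-low mesenchymal cells with 5 or more Tnmd UMIs and 6.65 CPM in those with none, whereas Runx1 in mutant Scx-high cells is at 115 CPM or more in every bin.

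Runx1 was higher in the mutant in both mesenchymal classes, and most so in Scx-high cells. WT Scx-high cells held 39 Runx1 UMIs in 39 of 1178 cells, never more than 1 in a cell. Mutant Scx-high cells held 133 UMIs in 75 of 235 cells, with up to 5 in a cell and 28.6% of the UMIs in the 10 cells with most. The levels were 7.93 CPM (5.64 to 10.8) and 122.8 CPM (102.8 to 145.5), a ratio of 15.5 (10.8 to 22.7). Among the 9833 genes tested in this comparison 0.570% had a higher ratio. Among Scx-low mesenchymal cells Runx1 was at 14.2 CPM (10.6 to 18.5) in the WT and 57.5 CPM (51.6 to 63.8) in the mutant, a ratio of 4.06 (3.04 to 5.51).

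The mutant cells were not the deeper ones, with medians of 4251 against 4285.5 UMIs in Scx-high and 2888 against 3747 in Scx-low mesenchymal cells. After thinning to 1500 UMIs Runx1 was seen in 0.826% (0.379 to 1.56) of WT and 14.8% (10.4 to 20.3) of mutant Scx-high cells, and in 1.58% (0.866 to 2.63) of WT and 6.24% (5.16 to 7.47) of mutant Scx-low mesenchymal cells. Without thinning the shares were 3.31%, 31.9%, 4.88% and 13.3%. Runx1 was seen in 0 of the 88 WT and 0 of the 79 mutant haemoglobin-rich cells, which allows up to 3.41% and 3.8%. Runx1 lies at chr16:92601466-92826149 on the minus strand.

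Blood cells also express Runx1. Over all cells that carried immune markers it was at 80.0 CPM (57.9 to 108) in 197 WT cells and 73.4 CPM (49.2 to 105) in 197 mutant cells. Mutant Scx-high cells had 10.2 CPM of the 7 immune markers in sum with Ptprc, the pan-leukocyte gene, at 0 UMIs, and no cell reached 3 immune UMIs. In Scx-low mesenchymal cells the immune list was at 425 CPM in the WT and 47.8 CPM in the mutant. Without the cells that carried markers of other types, Runx1 was at 10.1 CPM in WT and 59.2 CPM in mutant Scx-low mesenchymal cells. This is a ratio of 5.84 (3.92 to 9.08), and the Scx-high ratio was 16.6 (11.4 to 24.6). The WT Scx-low mesenchymal cells removed included 38 with immune markers, which held 11 of the 54 Runx1 UMIs of the class (83.1 CPM). A further 144 with pericyte or smooth muscle markers held 10 (13.7 CPM), and 33 with muscle markers held 7. These 33 had Mkx at 89.9 CPM (44.9 to 161) and Scx at 874 CPM (716 to 1056), so some may be tendon cells. Chodl held 228 of the 293 muscle-list UMIs of the class. Beyond these values, the part of immune cells in the level of Runx1 was not tested.

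Runx1 stood in opposite order between the classes of the 2 libraries. In the mutant it was higher in Scx-high than in Scx-low mesenchymal cells, at a ratio of 2.14 (1.74 to 2.62). In the WT the ratio was 0.560 (0.361 to 0.862), and 0.775 (0.457 to 1.33) without the cells that carried markers of other types, so the WT order does not hold beyond counting error there. With all WT cells of the 2 classes kept, the median log2 ratio of all genes was also negative, at -0.40, against -0.84 for Runx1. Over the 6 groups the order of Runx1 levels was mutant Scx-high, mutant Scx-low mesenchymal, WT other (51.2 CPM), mutant other (29.8 CPM), WT Scx-low mesenchymal and WT Scx-high. Intervals overlapped between mutant Scx-low mesenchymal and WT other cells, between WT and mutant other cells, and between the last pair.

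Runx1 did not differ beyond counting error between the Tnmd bins of mutant Scx-high cells. It was at 115 CPM (67.9 to 181) in those with 0 Tnmd UMIs, 139 CPM (69.2 to 248) in those with 1 to 4 and 123 CPM (100.4 to 149) in those with 5 or more. The part of cells with muscle or Schwann markers in these values was not tested. With the Scx-high cells limited to 5 or more Tnmd UMIs, the ratio of mutant to WT was 15.3 (10.5 to 22.7). In mutant Scx-low mesenchymal cells Runx1 was between 50.8 and 72.6 CPM in the 3 Tnmd bins.

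**Figure D3:**
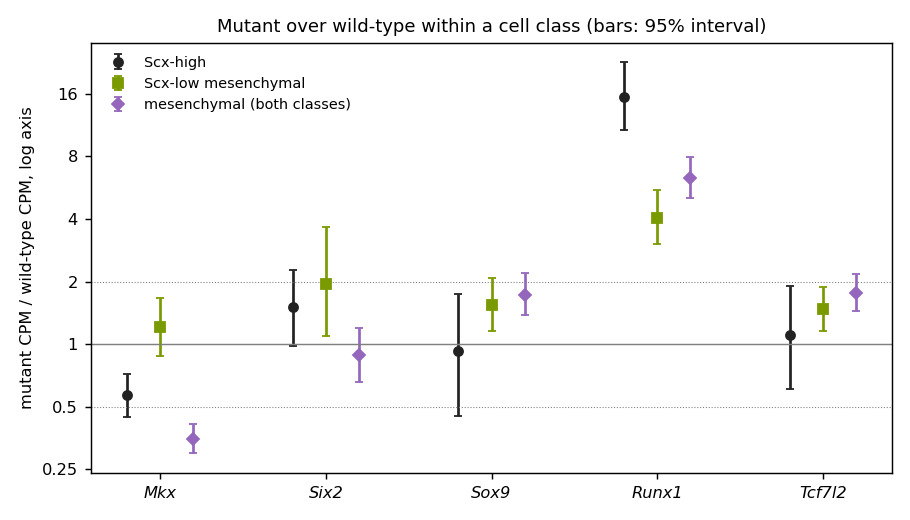
Ratio of mutant to WT level (log axis) for 5 members in Scx-high cells (black circles), Scx-low mesenchymal cells (green squares) and both together (purple diamonds), with exact 95% intervals of counting error; dotted lines mark 2-fold. Runx1 lies above 2-fold in every group (15.5, 4.06 and 6.31), and Mkx lies below 2-fold lower only over both classes together (0.351).

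Six2 was at higher levels in Scx-high than in Scx-low mesenchymal cells of both libraries. It was at 19.5 CPM (15.8 to 23.9) in WT and 29.5 CPM (20.2 to 41.7) in mutant Scx-high cells, and at 4.19 CPM (2.40 to 6.81) in WT and 8.16 CPM (6.06 to 10.8) in mutant Scx-low mesenchymal cells. The interval of the mutant to WT ratio included 1 in Scx-high cells (1.51, 0.981 to 2.28) and did not in Scx-low mesenchymal cells (1.95, 1.09 to 3.66). That last value rests on 16 WT UMIs, and without cells carrying other markers its interval also included 1 (1.83, 0.955 to 3.77), whereas that of Scx-high cells then did not (1.59, 1.01 to 2.44). Over both classes the ratio was 0.887 (0.658 to 1.19). Six2 was seen in 0 of 243 WT other cells, which allows up to 1.23%, and in 1 of 411 mutant other cells. Six2 lies at chr17:85684277-85688274 on the minus strand.

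Sox9 and Tcf7l2 had higher CPM in Scx-low mesenchymal than in Scx-high cells of both libraries, the reverse of Mkx and Six2. For WT Sox9 this was not seen in the thinned share of cells, which was 1.65% (0.982 to 2.6) of Scx-high and 1.58% (0.866 to 2.63) of Scx-low mesenchymal cells, and in the mutant the shares were 2.78% (1.03 to 5.95) and 4.03% (3.16 to 5.05). The thinned shares of Tcf7l2 were 1.74% (1.05 to 2.71) and 4.51% (3.24 to 6.09) in the WT and 2.31% (0.756 to 5.32) and 5.33% (4.33 to 6.49) in the mutant. Sox9 was at 12 CPM (9.14 to 15.5) in WT and 11.1 CPM (5.73 to 19.4) in mutant Scx-high cells, a ratio of 0.923 (0.452 to 1.74). Its level in Scx-low mesenchymal cells was 18.1 CPM (14.1 to 22.9) in the WT and 27.9 CPM (23.9 to 32.4) in the mutant, a ratio of 1.54 (1.16 to 2.07). A few WT cells held much of it, as 10 Scx-low mesenchymal cells held 49.3% of its 69 UMIs there, with up to 6 UMIs in a cell. In the mutant the top 10 cells held 14.6% of 171 UMIs. Sox9 lies at chr11:112782224-112787760 on the plus strand.

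Tcf7l2 was at 14.2 CPM (11.1 to 18.0) in WT and 15.7 CPM (9.14 to 25.1) in mutant Scx-high cells, a ratio of 1.10 (0.608 to 1.89). Its level in Scx-low mesenchymal cells was 24.6 CPM (19.9 to 30.2) in the WT and 36.2 CPM (31.6 to 41.3) in the mutant, a ratio of 1.47 (1.15 to 1.89). Without cells carrying other markers this ratio was 1.27 (0.969 to 1.68), with 1 inside the interval. Cells with pericyte or smooth muscle markers were among those removed, with 144 in the WT and 63 in the mutant class. In the WT these had 13 Tcf7l2 UMIs (17.8 CPM), against 28.8 CPM in cells without other markers. The 38 WT cells removed with immune markers and the 29 haemoglobin-rich ones had 0, which allows up to 7.89% and 10.3%. Beyond these values, the part of the cells removed in the level of Tcf7l2 was not tested. Tcf7l2 lies at chr19:55741820-55933654 on the plus strand.

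Runx2 was close to absent from these libraries. The WT library held 1 UMI in Scx-high and 2 UMIs in Scx-low mesenchymal cells, and the mutant held 0 UMIs in 235 Scx-high cells, which allows up to 1.28% of cells with a UMI, and 9 UMIs in 9 of 1946 Scx-low mesenchymal cells. These counts are under the 20 UMIs required for a comparison, and the ratio of mutant to WT in Scx-low mesenchymal cells was 2.80 with an interval from 0.580 to 26.6. Sp7, the osteoblast factor that acts with Runx2, had 2 UMIs in WT and 1 UMI in mutant Scx-low mesenchymal cells and 0 in the Scx-high cells of both. Runx2 lies at chr17:44495987-44814797 on the minus strand.

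Against all genes, the members were counted as called when they differed at least 2-fold, among genes with 20 or more UMIs over both groups. Scx is left out of these counts, which leaves 6 members, and 5 of them could be compared. In Scx-high cells 1 of the 5 (Runx1) was at least 2-fold higher in the mutant, where 12.9% of all genes were, and 0 were at least 2-fold lower, where 7.71% of all genes were. In Scx-low mesenchymal cells 1 of the 5 (Runx1) was higher, against 5.82% of all genes, and 0 were lower, against 7% of all genes. Over both classes together 1 (Runx1) was higher and 1 (Mkx) lower, against 7.96% and 6.33% of all genes. The median log2 ratio of all genes tested was 0.27 in Scx-high and 0.04 in Scx-low mesenchymal cells, and that of the 5 members was 0.14 and 0.63. Relative to the median gene in Scx-high cells, Runx1 was at 12.9, Six2 at 1.26, Tcf7l2 at 0.915, Sox9 at 0.766 and Mkx at 0.473, so Mkx passed 2-fold and Tcf7l2 moved from above to below 1.

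Between the classes, 2 members (Mkx and Six2) were at least 2-fold higher in WT Scx-high than in WT Scx-low mesenchymal cells, against 6.01% of all genes, and 0 were at least 2-fold lower, against 20.9% of all genes. Mkx was at a ratio of 7.79 (5.99 to 10.3) and Six2 at 4.66 (2.73 to 8.47). In the mutant, 3 members (Mkx, Six2 and Runx1) were at least 2-fold higher in Scx-high cells, against 5.36% of all genes, and 2 (Sox9 and Tcf7l2) at least 2-fold lower, against 14% of all genes. There Mkx was at 3.68 (2.73 to 4.93) and Six2 at 3.62 (2.25 to 5.76), and Sox9 was at 0.397 (0.201 to 0.712) and Tcf7l2 at 0.433 (0.248 to 0.710). The WT ratios of Sox9 (0.664, 0.461 to 0.953) and Tcf7l2 (0.578, 0.418 to 0.796) were also under 1, where the median log2 ratio of all genes was -0.40. Relative to that median they were 0.877 and 0.764. These comparisons share cells, since each class enters a comparison across libraries and another within its own.

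Along the Scx level of the mesenchymal cells, WT Mkx was low up to 10 Scx UMIs per 10000 and higher above. It was at 13.6 CPM in the 290 WT cells with no Scx UMI, 5.53 CPM (2.03 to 12) from 1 to 3, 15.5 CPM (9.44 to 23.9) from 3 to 10, 58.9 CPM (36.9 to 89.2) from 10 to 30, 96.7 CPM (71.3 to 128) from 30 to 100, 123 CPM (111 to 137) from 100 to 300 and 143 CPM (124 to 163) at 300 or more. In the mutant the values did not rise in this order, but the interval of each bin overlapped that of the next. The bin from 10 to 30 held 6 Mkx UMIs, so a different course in the mutant is not shown. There it was at 17.4 CPM in the 1525 cells with no Scx UMI, at 12.5 CPM from 1 to 3, at 38.3 CPM (25.5 to 55.4) from 3 to 10, at 21 CPM (7.70 to 45.7) from 10 to 30, at 70.0 CPM (45.3 to 103) from 30 to 100, at 91.6 CPM (62.6 to 129) from 100 to 300 and at 55.8 CPM (34.5 to 85.3) at 300 or more. The intervals of the 2 libraries stood apart in the top bin, where the mutant had less Mkx, and from 3 to 10, where it had more. They overlapped in the other bins. No ratio was computed for the bins, and an overlap does not show that 2 levels are the same. Bins with low Scx mix cells and free RNA, and their Scx values depend on depth.

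Runx1 followed another course. In the WT it stayed between 6.04 and 16.5 CPM over the bins from 0 to 300 or more, leaving out a bin of 3 cells. In the mutant it was at 44.2 CPM (38.3 to 50.7) in cells with no Scx UMI and at 157 CPM (115 to 211) from 10 to 30 Scx UMIs per 10000, a level not separated from the 138 CPM (103 to 181) at 300 or more. Runx1 was thus higher in the mutant at every Scx level, including the 1525 mutant cells with no Scx UMI, where the WT had 16.5 CPM (9.63 to 26.5).

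**Figure D4:**
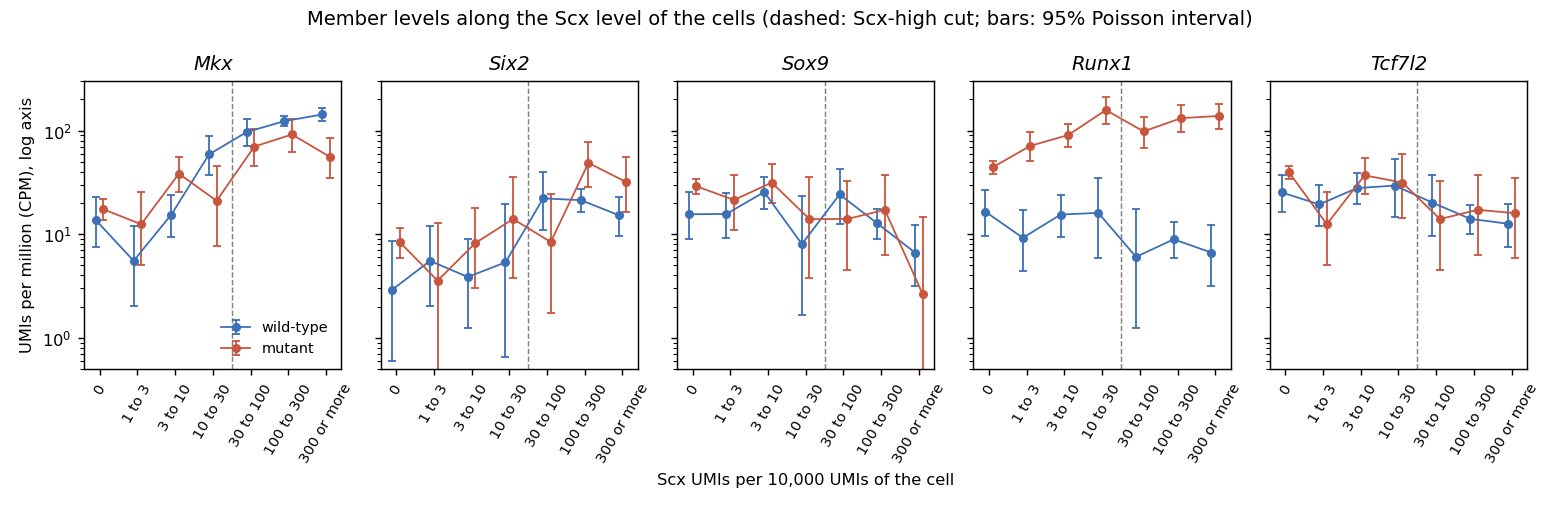
Level of 5 members (CPM, log axis) in the mesenchymal cells of the WT (blue) and mutant (red) library, binned by Scx UMIs per 10000 UMIs of the cell, with 95% Poisson intervals; the dashed line is the Scx-high cut and a WT bin of 3 cells is not drawn. WT Mkx goes from 13.6 CPM with no Scx to 143 CPM in the top bin, and mutant Runx1 from 44.2 to 138 CPM, whereas WT Runx1 stays between 6.04 and 16.5 CPM.

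Most cells showed at most 1 of the 6 members other than Scx. After thinning, 78.1% of WT and 70.4% of mutant Scx-high cells showed none, 20.3% and 24.1% showed 1, and 1.65% (0.982 to 2.6) and 5.09% (2.57 to 8.93) showed 2. Every Scx-high cell had Scx by the rule, so each of these cells also counts as co-detected with Scx. Among Scx-low mesenchymal cells 2 members were seen together in 0.451% of WT and 0.851% of mutant cells.

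Mkx and Six2 were seen together more often than the product of their shares in mutant Scx-high cells. In the thinned counts 5 of 216 cells had both, where the product of the shares gives 1.04, a ratio of 4.80 (1.56 to 11.2). Six2 was seen in only 9 of these cells, so the upper limit is above what the ratio can reach. In the unthinned counts 15 of 235 cells had both, against 6.66, a ratio of 2.25 (1.26 to 3.71), and Six2 was seen in 27.8% of the 54 cells with Mkx and 7.73% of the 181 without. In WT Scx-high cells the thinned ratio was 0.833 (0.270 to 1.94), with 5 cells against 6, and the unthinned ratio 1.09 (0.762 to 1.51), with 36 cells against 33.1. By Tnmd, Six2 was at 33.1 CPM (22 to 47.8) in mutant Scx-high cells with 5 or more UMIs and at 12.7 CPM (1.54 to 46) in those with 0.

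For Mkx and Runx1 the interval included the product of their shares in both libraries. After thinning 2 mutant Scx-high cells had both, against 3.70 (0.540, 0.0654 to 1.95), and 4 WT cells, against 1.42 (2.81, 0.767 to 7.20). Runx1 was seen in only 9 thinned WT Scx-high cells, so the WT upper limit is also above what the ratio can reach. In mutant Scx-high cells 16 of 235 cells had both in the unthinned counts, against 17.2, a ratio of 0.928 (0.531 to 1.51), and in WT Scx-high cells 11 of 1178 did, against 14.8 (0.742, 0.370 to 1.33). Runx1 was seen in 29.6% of the mutant Scx-high cells with Mkx and 32.6% of those without. Runx1 and Scx were seen together more often than that product in mutant Scx-low mesenchymal cells, where 91 cells had both in the unthinned counts against 56.0 (1.62, 1.31 to 1.99), and after thinning 24 cells against 14.5 (1.65, 1.06 to 2.46). The WT ratio there was 1.37 (0.590 to 2.69) after thinning.

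The cells that held a member were also compared for matrix genes, as a description. WT Scx-low mesenchymal cells with Mkx had a median of 50.8 UMIs per 10000 of the 5 tenocyte markers other than Scx, against 3.89 in cells without Mkx, and mutant ones had 41.1 against 9.88. For the 7 fibroblast markers the WT Scx-low mesenchymal cells had 7.52 with Mkx against 55.7 without, whereas mutant ones had 54.1 against 61.9. In mutant Scx-high cells, those with Runx1 had a median of 28.0 UMIs per 10000 of the fibroblast markers against 13.4 without, and 102 against 108 of the tenocyte markers. For the 7 cartilage matrix genes, WT Scx-high cells with Sox9 had a median of 23.2 UMIs per 10000 against 29.2 without. In Scx-low mesenchymal cells these medians were 0, and the summed level with Sox9 was 167 CPM against 135 CPM without in the WT and 79.2 CPM against 92.1 CPM in the mutant. Cells in which a gene was seen were often deeper, with a median of 5951 UMIs for mutant Scx-high cells with Runx1 against 3369.5 without.

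The genes most like each member were found by correlation over 1976 WT and 1979 mutant mesenchymal cells thinned to 1500 UMIs, among 3118 genes seen in at least 5% of them. Scx was most like fibromodulin (Fmod, r = 0.864 in the WT and 0.585 in the mutant), Tnmd (0.794 and 0.509) and C1qtnf3 (0.443 and 0.420). Mkx was most like Tnmd (0.206 and 0.210), keratocan (Kera, 0.150 and 0.235) and Fmod (0.204 and 0.146). Fmod and keratocan are small leucine-rich proteoglycans that organise collagen fibrils. For Six2, Sox9, Runx1, Runx2 and Tcf7l2 no gene reached r = 0.1 in both libraries. Cells of a library share its depth and free RNA, so these values describe the libraries.

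Other regulators were counted by lists, to be read beside all genes. Of all genes, 12.9% were at least 2-fold higher and 7.71% lower in mutant Scx-high cells, and 5.82% and 7% in mutant Scx-low mesenchymal cells. Here and below, list genes were not recomputed without the cells that carried markers of other types. Of the Scx-low mesenchymal cells, 692 of 943 in the WT and 1803 of 1946 in the mutant carried no such markers. The part of the remaining cells in the list values was not tested. Of the 10 limb fibroblast regulators 8 could be compared in Scx-high cells, and 4 were at least 2-fold higher and 1 lower in the mutant, with a median log2 ratio of 0.99 against 0.27 over all genes. The lower one was Tbx4, with 2 UMIs in the mutant and 20 in the WT (0.454, 0.0514 to 1.87), an interval that includes 1. Osr1, a zinc-finger factor of limb connective tissue, was at 3.26 CPM in the WT and 76.6 CPM in the mutant, a ratio of 23.5 (13.7 to 43.1). Its relative Osr2 was at 1.83 and 17.5 CPM (9.58, 4.13 to 24.0), and Prrx2, a homeobox factor of limb mesenchyme, at 37.2 and 145.9 CPM (3.92, 3.15 to 4.87). In Scx-low mesenchymal cells 1 of 9 was higher and 0 lower, with Osr1 at 88.4 and 145 CPM (1.64, 1.44 to 1.86). Of the 11 tendon regulators 10 could be compared in Scx-high cells, 2 higher and 0 lower, with a median of 0.30. Foxp1, a forkhead factor, was among the higher ones, at 75.9 and 170 CPM (2.24, 1.87 to 2.68).

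Among the partners of the members, none of the 7 E protein and Id genes, the first pairing with Scx and the second blocking that pairing, was at least 2-fold different in Scx-high cells, with a median log2 ratio of 0.27. Tcf3 was at 32.8 and 50.8 CPM (1.55, 1.12 to 2.12) and Id1 at 99.1 and 60.9 CPM (0.615, 0.468 to 0.797). In Scx-low mesenchymal cells Id4 was the only one past 2-fold, at 131 CPM in the WT and 21.9 CPM in the mutant, 5.98-fold lower (4.93 to 7.29). Cbfb, the RUNX partner, was at 36.2 CPM in WT and 85 CPM in mutant Scx-high cells (2.35, 1.80 to 3.03), and at 77.3 and 99.7 CPM in Scx-low mesenchymal cells (1.29, 1.12 to 1.49). Of the 9 genes of the bone list 2 could be compared in Scx-high cells, Cbfb and Twist1, and 6 in Scx-low mesenchymal cells, where 2 (Dlx3 and Msx2) were at least 2-fold lower.

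Of the 8 genes of Wnt signaling 4 could be compared in Scx-high cells. Nkd2 was higher, at 16.9 and 55.4 CPM (3.28, 2.31 to 4.63), and Nkd1 lower, at 55.1 and 22.2 CPM, 2.49-fold (1.64 to 3.95), and both are antagonists of Wnt signaling. Ctnnb1, which encodes beta-catenin, was at 84.4 and 110 CPM (1.30, 1.05 to 1.60). Of the 7 cartilage regulators 3 could be compared in Scx-high cells, with none past 2-fold. Among Scx-low mesenchymal cells 5 could be compared and 3 (Sox5, Sox6 and Foxc1) were lower. Sox5, a partner of Sox9 in cartilage, was at 22.3 CPM in the WT and 4.57 CPM in the mutant there, 4.88-fold lower (3.15 to 7.77), while Sox9 itself was at a ratio of 1.54.

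Several matrix genes of tendon and cartilage were lower in mutant Scx-high cells. Of the 7 tendon genes 4 were at least 2-fold lower, where 7.71% of all genes were, and 0 higher, with Col1a1 at 73183 and 20467 CPM (3.58-fold lower) and Fmod at 5299 and 2464 CPM (2.15-fold lower), while Thbs4 was at 1142 and 1781 CPM (1.56, 1.48 to 1.64). Among Scx-low mesenchymal cells 3 of the 7 (Kera, Thbs4 and Comp) were at least 2-fold higher in the mutant, where 5.82% of all genes were, and 0 lower, with Kera at 218 and 567 CPM (2.6-fold) and Thbs4 at 287 and 681 CPM (2.37-fold). Of the 7 cartilage genes 5 could be compared in Scx-high cells and 3 were at least 2-fold lower, where 7.71% of all genes were, and 0 higher. Col2a1 was one of the 3 lower genes, at 861 and 114 CPM (7.52-fold lower). Acan was not among the lower genes, at 247 and 373 CPM (1.51, 1.35 to 1.69). Among Scx-low mesenchymal cells 6 of the cartilage genes could be compared, with 2 at least 2-fold higher and 2 lower, against 5.82% and 7% of all genes. Of the 6 bone genes only Spp1 could be compared in Scx-high cells, at 5.09 and 802 CPM. Bglap and Ibsp, which mark osteoblasts, were at 0 UMIs in Scx-high cells of both libraries. Spp1 was seen in 30.2% of mutant Scx-high cells, in 4.53% of WT other cells and in 9.73% of mutant other cells.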

How the data were processed

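Cells from P7 limb tendons were sequenced by the 10x Genomics 3′ method in 2 libraries, each of 2 pooled pups. The authors aligned the reads to mm10 with Cell Ranger (1.2.0 in the submitters' processing notes; the study's methods name another version) and deposited UMI counts per gene and cell, without normalization. All barcodes were used, with 948 to 14358 UMIs per cell in the WT and 903 to 15968 in the mutant library.

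Summed UMIs of each class were scaled to counts per 1000000 (CPM). Ratios of levels have exact conditional binomial, levels exact Poisson and shares exact binomial (Clopper-Pearson) 95% intervals, which cover counting error only. For co-detection ratios the interval is the Poisson interval of the number of cells with both, divided by the product of the shares. The product was taken as fixed, so these limits are rough and the upper one can pass the largest possible ratio. No p-value was computed, since cells are not replicates. Genes with at least 20 UMIs over both groups were compared, and a gene at 0 in 1 group was set at 3 counts for the 2-fold call. Cells were thinned to 1500 UMIs (seed 1) for shares. A cell carried markers of another type if 3 or more UMIs fell on an immune, endothelial, pericyte, Schwann, muscle or epithelial list, or over 50% on haemoglobin genes. Only the ratios of levels and their intervals were checked with simulated counts of known fold change. Those counts held counting error alone, so they do not show how the intervals cover other spread. Members and lists were chosen with earlier results of these data known. The text names the 7 members, genes of the regulator and matrix lists with at least 20 UMIs, and the 3 genes most like each member at r of at least 0.1. The values of 1 list gene are not reported here. Genes named with fewer UMIs, and which list genes to name, were chosen after values were seen. The alternatives tried were other Scx and collagen cuts, other totals and centring, no UMI minimum, a mean over cells, other thinning, and leaving out cells by quality, doublet call or other markers; 1 (by Tnmd) was added after seeing the data. Doublets stayed in; Scrublet (scanpy 1.11.5, expected rate 2%) called 26 WT and 8 mutant cells. Gene coordinates are from GENCODE M21 (GRCm38). Python 3.11.15, NumPy 2.4.6 and SciPy 1.17.1 were used.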

Additional observations from a re-analysis of the deposited data

Results flagged for a closer look

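Runx1 had opposite directions in the 2 libraries when Scx-high cells were compared with Scx-low mesenchymal cells, with ratios of 0.560 in the WT (0.361 to 0.862) and 2.14 in the mutant (1.74 to 2.62). The median log2 ratio of all genes was -0.40 in the WT comparison, against -0.84 for Runx1, so part of the WT direction was shared by most genes. In the mutant comparison these values were -0.14 and 1.10. The difference was not tested, since there is 1 library per group. Without the cells that carried markers of other types the WT ratio was 0.775 (0.457 to 1.33) and the mutant ratio 2.19 (1.77 to 2.70).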

How the results depend on the processing

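The spread between pups is not known and no replicate can be left out, and the depth does not allow a comparison of Runx2. No paired analysis was possible because each group is 1 library. Of 275 recomputed member ratios 271 stayed within the interval of the reported ratio, and none past 2-fold turned its direction. The 4 outside were Runx1 in Scx-low mesenchymal cells (5.84) and over both classes (8.05) without cells of other markers, WT Mkx between classes after centring on the median gene (10.3), and Mkx in Scx-high cells with at least 5 Tnmd UMIs (0.725), a setting chosen after seeing the data. The cause was not tested. Some of the 275 ratios could not move. Dropping the UMI minimum changes no ratio, and the collagen cut changes no mutant to WT ratio of Scx-high cells. The Tnmd setting changes no mutant to WT ratio of Scx-low mesenchymal cells.

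The share of Scx-high cells was 53.6% (WT) and 11% (mutant) with a cut of 15 per 10000, 47.4% and 7.10% with a cut of 60, and 61.9% in the WT without cells of other markers. The number of members at least 2-fold lower in mutant Scx-high cells went from 0 to 1 (Mkx) with the 20 most abundant genes left out of the total or with centring. The number at least 2-fold higher in mutant Scx-low mesenchymal cells went from 1 to 2 with a cut of 15, to 3 with a mean over cells scaled to equal UMIs, and to 2 with no minimum beyond 1 UMI in both groups. Over both classes it went from 1 to 2 with the mean over cells and with no minimum. The number at least 2-fold lower in Scx-high than in Scx-low mesenchymal cells went from 0 to 1 in the WT with the mean over cells and with no minimum, and from 2 to 1 in the mutant with a cut of 60 and with the mean over cells. With no minimum, Runx2 enters these counts with fewer than 20 UMIs.

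Of 60 shares and co-detection values recomputed, 35 moved outside their intervals and 25 did not, with 2500 UMIs per cell or no thinning, which keep more UMIs of each cell.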
